A study of Mus musculus with 8 samples.

Results

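Integrins, cell adhesion molecules and homing receptors were described in long-term hematopoietic stem cells (LT-HSCs) of the mouse fetal liver. The set was named by symbol and holds 37 genes: 14 integrin alpha subunits, 7 integrin beta subunits, 8 adhesion molecules of the immunoglobulin type, 4 surface glycoproteins and 4 genes of the chemokine and sphingolipid axis. All 37 were found in the count table of 55487 genes, and 36 of them had 10 or more reads summed over the samples, as 20610 genes in all did. The exception was Itgax, the alpha subunit known as CD11c, with 1 read in WT1 and none elsewhere.

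The samples came from E14.5 embryos of the IκBα targeted knockout line Nfkbia tm1Bal, a deletion carried by every cell of the embryo, from timed matings of parents that were heterozygous and/or carried Gfi1:tomato. IκBα holds the NF-κB transcription factors inactive in the cytoplasm. There were 3 WT, 3 HET and 2 KO samples, each of 500 cells sorted as lineage-negative, Sca1+, cKit+, CD150+ and CD48-, and CD11b was not part of the lineage mix at this stage. The labels give male and total RNA for WT1, WT2 and HET1, and female and polyA RNA for WT3 and the 2 other HET samples and both KO samples, so the sex and the RNA label cannot be told apart, and both KO samples were on the female side.

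Integrins are pairs of an alpha and a beta chain that bind matrix proteins or receptors on other cells. Blood stem cells that travel through the circulation to the fetal liver and later to the marrow use them to stop and lodge, after they have rolled on selectin ligands and sensed the chemokine CXCL12 through CXCR4. Junctional molecules of the immunoglobulin type such as PECAM1 and the JAM proteins mark both endothelium and the stem cells that descend from it.

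Between 17895973 and 21720972 reads per sample fell on genes, and levels are given as CPM, the reads of a gene scaled to the reads on genes of its sample after a TMM factor of 0.855 to 1.16 was applied to them. Before that factor, 3 reads, the least this depth was taken to show, equal 0.138 to 0.168 CPM. The deleted gene, Nfkbia, had 1 read in KO1, 0 in KO2 and 243 to 1621 reads in the other samples. The label of the sorted cell was checked against 8 markers of LT-HSCs and their gate. Of these, 6 (Ly6a, Slamf1, Procr, Mecom, Hlf and Ptprc) were lower in WT3 and HET3 than in all other samples, while Kit and Cd48 were not. Procr, the stem cell receptor EPCR, stood at 169 and 165 CPM in WT1 and WT2, at 36.3 and 30.6 in HET1 and HET2, at 96.8 and 85.7 in KO1 and KO2, and at 8.49 and 1.13 in WT3 and HET3. Ly6a, which encodes the Sca1 used for the sort, had no read in HET3 and 5 CPM in WT3. The summed level of the 8 markers was 1283 and 1367 CPM in WT1 and WT2, 272 in WT3, 540, 444 and 248 in HET1, HET2 and HET3, and 1124 and 796 in KO1 and KO2. Hepatocyte genes summed to 1457 CPM in WT3 and 731 in HET3 against 49.8 to 296 in the rest, and erythroid genes to 14219 in HET1 against 650 to 5045 in the rest. Macrophage genes ranged from 33.5 to 263 CPM in WT and HET and were at 10.2 and 87.6 CPM in KO1 and KO2. For these reasons the counts of members and the fold changes described most closely are also given without WT3 and HET3, a choice made after the data were seen.

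**Figure D1:**
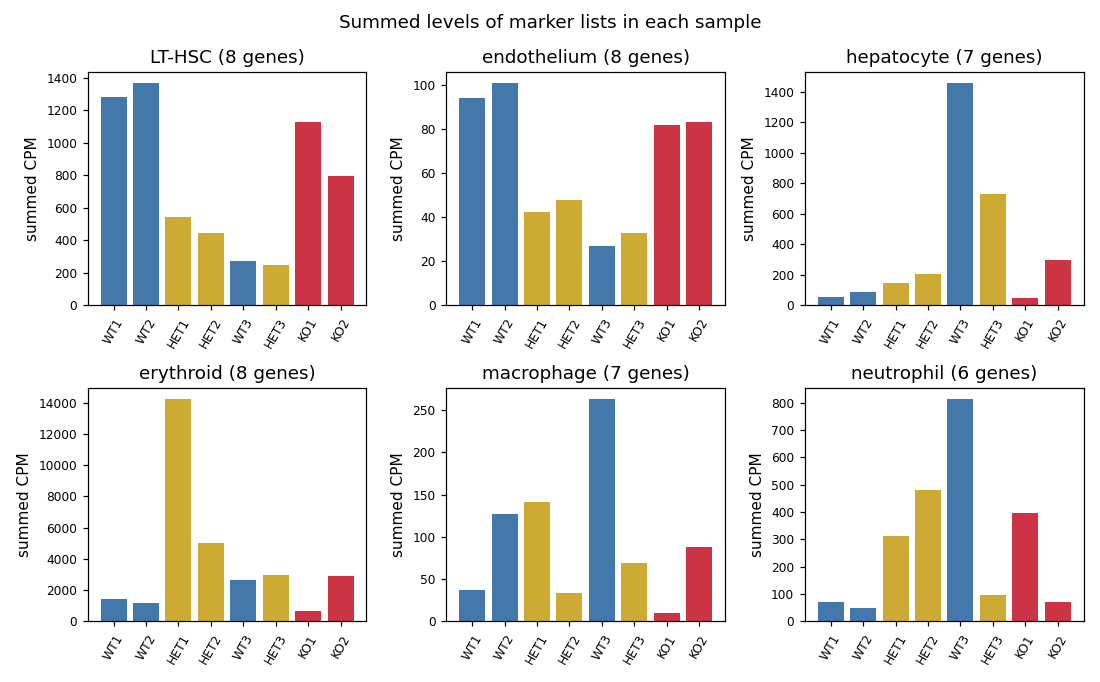
Summed CPM of 6 marker lists in each sample (WT blue, HET yellow, KO red; samples on the x axis, summed CPM on the y axis, each panel with its own scale). The LT-HSC sum is lowest in HET3 (248) and WT3 (272) and highest in WT2 (1367), whereas the hepatocyte sum is highest in WT3 (1457).

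The 36 genes spanned more than 4 orders of magnitude per length of exon sequence. The highest mean over the 8 samples was that of Cd47, the signal that keeps macrophages from engulfing a cell, with 103 CPM per kb, followed by Itgb1, the common beta 1 chain, with 86.4, Icam2 with 50.4, Selplg with 31.0 and Cd44 with 16.6 CPM per kb. The ranges of Cd47 (89.2 to 111) and Itgb1 (72.7 to 103) overlapped, Icam2 (40.7 to 57.0) lay below both, and Selplg ranged so widely (12.6 to 57.6) that it overlapped Icam2 and Cd44 (11.8 to 19.5). On the scale of CPM, 5 genes had a mean of 100 or more, 15 a mean of 10 or more, 12 a mean between 1 and 10, and 9 a mean under 1. Of the 36, 10 had no read in at least 1 sample.

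**Figure D2:**
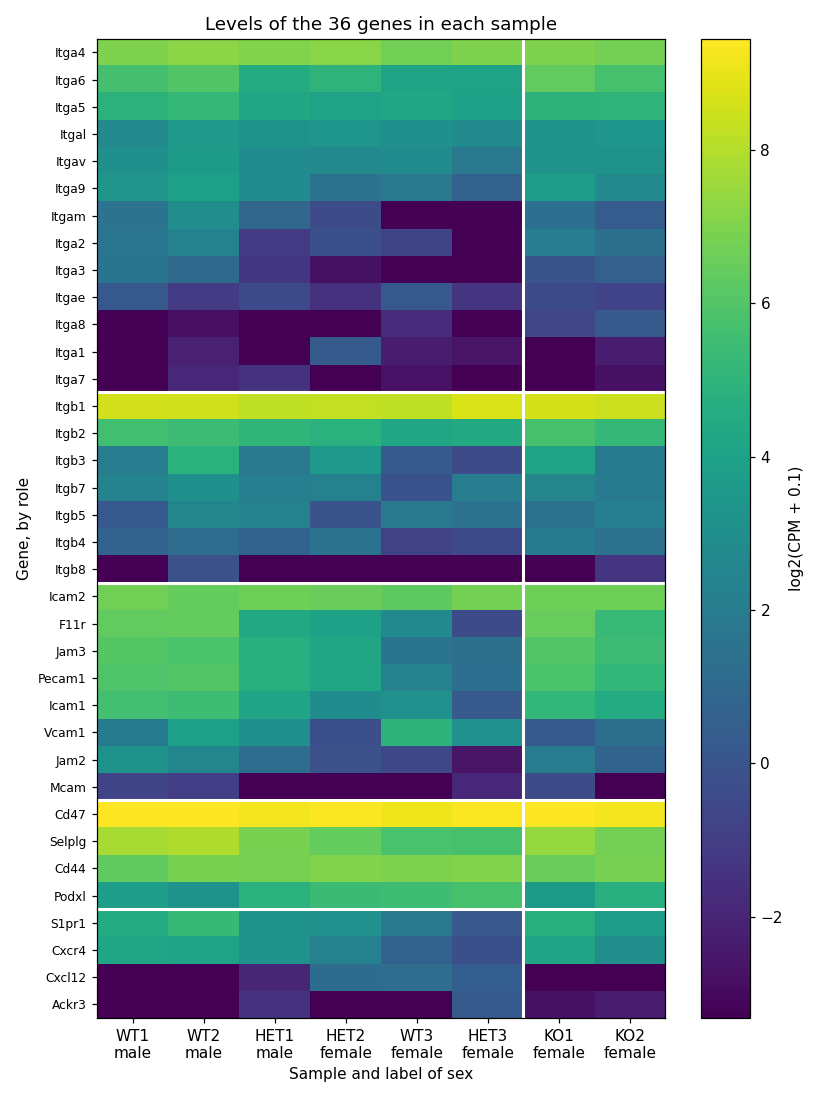
Level of each of the 36 genes (rows, grouped by role) in each sample (columns, with the label of sex) as log2(CPM + 0.1). Cd47, Itgb1 and Itga4 are near even across samples, whereas F11r, Jam3, Pecam1, Icam1, S1pr1 and Cxcr4 are bright in WT1, WT2, KO1 and KO2 and dark in WT3 and HET3.

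The question of the design was whether loss of IκBα alters expression in the stem cells, and KO was compared with WT and HET pooled, with sex in the model. A gene was called when the quasi-likelihood test of edgeR gave an adjusted p under 0.05 together with a change of more than 1 on the log2 scale in either direction. No member was called, and 0% of all genes were. At an unadjusted p under 0.05, 15 of the 36 members were higher in KO, where 15.7% of all genes were, and 2 were lower, where 9.48% of all genes were. The adjusted p-values of the members ran from 0.148 to 0.966. The median log2 fold change was 1.04 over the members, 29 of them above 0, and 0.13 over all genes tested. Other tools drew the line elsewhere: DESeq2 called 13 members and 8.85% of all genes, or 11 members and 7.10% with the fold changes shrunken by apeglm, and edgeR without a filter on low counts called 10 members and 3.51% of all genes.

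With sex in the model and both KO samples female, the KO term was set by the female references WT3, HET2 and HET3. Female samples alone gave a median log2 fold change of 0.99 over the members, beside 1.04. The 15 higher members, picked by this term, were above all 3 female WT and HET samples in both KO samples, which is no separate result. Of these members, 14 had their lowest level in WT3 or HET3. The exception was Itga8, with no read in 4 of the WT and HET samples. Picking members by a term set by WT3, HET2 and HET3 favours this order, and its share of all genes was not recorded. Over the 36 members, both KO samples were above the 3 female reference samples in 17 and below them in 3, where 27.1% and 21.4% of all genes were. Against all 6 WT and HET samples the picture was different. Both KO samples were above all 6 in 1 member, Itga8, and below all 6 in none, where 3.05% and 1.79% of all genes were, and in 11 of the 15 higher members both KO samples stayed below the higher of WT1 and WT2. Without the sex term 1 member, Itga8, had an unadjusted p under 0.05, where 2% of all genes did, and the median log2 fold change was 0.18. Without WT3 and HET3, and with the sex term, 5 members were higher (Itga3, Itga8, Itga9, Icam1 and Jam3) and 1 was lower (Cxcl12) at an unadjusted p under 0.05. Of all genes, 5.09% passed that p in either direction. The median over the members was 1.13, and only HET2 was then left as a female reference. In 11 of the 36 members the 4 highest samples were WT1, WT2, KO1 and KO2, an order noticed in the data, and 16.0% of all genes had it. In 7 of the 8 LT-HSC markers the same 4 samples were highest. In bulk RNA fewer cells of a type and less RNA per cell cannot be told apart, and the part of the marker levels in the results was not tested.

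Among the integrin alpha chains, 6 of 13 were higher in KO at an unadjusted p under 0.05 and none was lower, where 15.7% and 9.48% of all genes were. Itga4, which forms VLA-4 with beta 1 and binds VCAM1 and fibronectin, was the most abundant and nearly flat. It stood at 128, 149 and 106 CPM in WT1, WT2 and WT3, at 132, 146 and 127 in HET1, HET2 and HET3, and at 124 and 110 in KO1 and KO2. The highest sample was 1.40 times the lowest, and the log2 fold change of KO over WT/HET was -0.11 ± 0.17 (SE), adjusted p = 0.722. Reads of Cerkl, which overlaps Itga4 on the other strand, could not be separated, as the strand used for counting was not given, and the same holds for the overlapped genes Itga1, Itga7, Itgam, Itgav, Vcam1, Jam3 and Mcam.

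Itga6, the laminin receptor chain CD49f that is used to sort stem cells, was at 50.8, 63.0 and 17.2 CPM in WT, at 22.9, 31.2 and 16.1 in HET, and at 83.3 and 52.3 in KO, each in the order of the sample numbers. KO1 was above every other sample, while KO2 lay near WT1. KO over WT/HET gave a log2 fold change of 1.65 ± 0.45 (SE), adjusted p = 0.148, and 1.09 without WT3 and HET3. Itga9, which pairs with beta 1 and binds tenascin and osteopontin, was at 9.92, 15.3 and 3.39 CPM in WT, at 7.02, 2.57 and 1.48 in HET, and at 13.5 and 6.44 in KO. KO2 was thus under HET1, and the 3 female reference samples were the lowest. Its log2 fold change was 2.00 ± 0.52 (SE), adjusted p = 0.148, and hardly moved without WT3 and HET3 (1.92).

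Itga5, the fibronectin receptor chain, had a close KO pair, 30.2 and 31.4 CPM, against 29.1, 35.9 and 19.5 in WT and 19.3, 16.6 and 16.0 in HET. The KO samples were above all HET samples and inside the range of WT. Its log2 fold change was 0.83 ± 0.27 (SE), adjusted p = 0.154, and 0.87 without WT3 and HET3. Itga3, a laminin receptor chain, had few reads: 65, 48 and 0 in WT, 6, 1 and 0 in HET, and 18 and 29 in KO. Both KO samples were below WT1 and WT2 and above the rest. Its fitted log2 fold change of 5.60 ± 1.31 (SE), adjusted p = 0.148, was set by the female samples, where 47 reads in KO faced 1 read in 3 reference samples, a ratio per read on genes of 78.1 with an exact 95% counting interval of 13.3 to 3150. With neither the sex term nor WT3 and HET3, it was -0.23.

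Itga8, a receptor chain for nephronectin that is best known from kidney development, was the member whose 2 KO samples were above all others. It had 11 and 23 reads in KO, 0, 1 and 4 in WT and none in HET, or 0.538 and 1.13 CPM in KO against at most 0.208 CPM elsewhere. Per read on genes KO held 22 times the level of WT and HET together (exact 95% counting interval 8.56 to 72.1, counting error only). Fitted with sex, its log2 fold change was 3.46 ± 1.48 (SE), adjusted p = 0.192, and 7.12 without WT3 and HET3. The exact two-sided permutation test gave p = 0.0714, which is the smallest that 2 samples against 6 allow, and 0.143 to 1 for the other members. That value follows from the order for which Itga8 is described, with both KO samples above the 6 others, and adds nothing to it. The order was seen in 1 of the 36 members and in 3.05% of all genes. The overlapping E030013I19Rik lies on the other strand. The level stayed low, at 0.0326 CPM per kb over the 8 samples.

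The other alpha chains gave no clear picture. Itga2, a collagen receptor chain, was at 4.16 and 2.56 CPM in KO and from 0 to 4.72 in WT and HET, with a median of 0.639 (log2 fold change 2.95 ± 1.26, adjusted p = 0.191, and 2.11 without WT3 and HET3). Itgam, the CD11b chain of Mac-1, was at 2.45 and 1.23 CPM in KO, at 2.86, 7.65 and 0 in WT and at 1.75, 0.656 and 0 in HET. Its KO samples thus lay between those of WT. Itgal, which forms LFA-1 with beta 2, stayed between 6.82 and 11.7 CPM in all samples, and Itgav, a chain of the vitronectin receptors, between 3.38 and 12.2 CPM. Itgae, which binds E-cadherin, was at 0.252 to 1.04 CPM. Itga1, a collagen receptor chain, had 22 of its 30 reads in HET2, and Itga7, a laminin receptor chain of muscle, had 11 reads in all.

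Of the 7 beta chains, 1 was higher in KO at an unadjusted p under 0.05, a count near the share of all genes, 15.7%. This was Itgb2, the partner of the leukocyte alpha chains. It was at 47.8, 43.2 and 18.6 CPM in WT, at 33.1, 28.6 and 21.7 in HET and at 52.8 and 36.1 in KO. KO1 was the highest sample of all and KO2 lay among the male references. In the fit its log2 fold change was 0.95 ± 0.27 (SE), adjusted p = 0.148, and 0.61 without WT3 and HET3. Itgb1 had a mean of 352 ± 42.4 CPM (SD, n = 3) in WT, at 341 ± 70.2 (SD, n = 3) in HET and at 370 ± 30.8 (SD, n = 2) in KO, with a log2 fold change of 0.11 ± 0.20 (SE), adjusted p = 0.760. These groups overlapped fully. Itgb3, the platelet chain, was uneven within every group: 4.17, 28.3 and 1.15 CPM in WT, 3.35, 11.5 and 0.653 in HET, and 17.2 and 3.74 in KO. Megakaryocyte genes, summed, were likewise highest in WT2 (1340 CPM) and KO1 (1075 CPM), and their part in the level of Itgb3 was not tested. Itgb4, the laminin receptor partner of alpha 6, was at 3.72 and 2.61 CPM in KO and at 0.469 to 2.67 in WT and HET. Itgb5 ranged from 0.908 to 5.68 CPM and Itgb7, which pairs with alpha 4 or alpha E, from 0.833 to 8.32 CPM. Itgb8, which activates latent TGF-beta, had 19 reads in WT2, 6 in KO2 and none elsewhere.

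Of the immunoglobulin-type molecules, 5 of 8 were higher in KO at an unadjusted p under 0.05, where 15.7% of all genes were. The median log2 fold change of the 8, 2.47, was the highest of the 5 roles. Pecam1 (CD31), a homophilic receptor of endothelium, platelets and stem cells, was at 61.3, 65.6 and 4.95 CPM in WT, at 25.2, 17.9 and 2.43 in HET and at 57.7 and 34.7 in KO. Both KO samples were above all HET samples and under WT1 and WT2. The fitted log2 fold change was 2.45 ± 0.75 (SE), adjusted p = 0.152, and 1.34 without WT3 and HET3. Jam3, which binds JAM2 on neighbouring cells, was at 67.6, 57.1 and 2.92 CPM in WT, at 25.7, 18.97 and 2.55 in HET and at 65.3 and 42.4 in KO. WT1 or WT2, whichever was lower, held 19.6 times the level of the higher of WT3 and HET3. KO over WT/HET gave a log2 fold change of 2.72 ± 0.83 (SE), adjusted p = 0.152, and 1.48 without WT3 and HET3. F11r, the junctional molecule JAM-A, was at 81.9, 84.7 and 6.56 CPM in WT, at 21.6, 15.9 and 0.653 in HET and at 87.8 and 38.2 in KO. Here KO1 was just above WT2, and KO2 was between HET1 and WT1. Its log2 fold change was 3.02 ± 1.01 (SE), adjusted p = 0.154, and 1.95 without WT3 and HET3. In the same samples the LT-HSC marker sum went the same way, and endothelial genes summed to 93.9 and 101 CPM in WT1 and WT2, 81.8 and 83.3 in KO and 26.8 to 47.6 in the rest. The endothelial genes did not move together. Tie1, with the most reads (5786), had a log2 fold change of 2.99 in KO, and Plvap, the next (3219 reads), -0.32. Of the 8 genes, 5 were above 0 and 3 below. The part of the LT-HSC or endothelial genes in the levels of Pecam1, Jam3 and F11r was not tested.

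**Figure D3:**
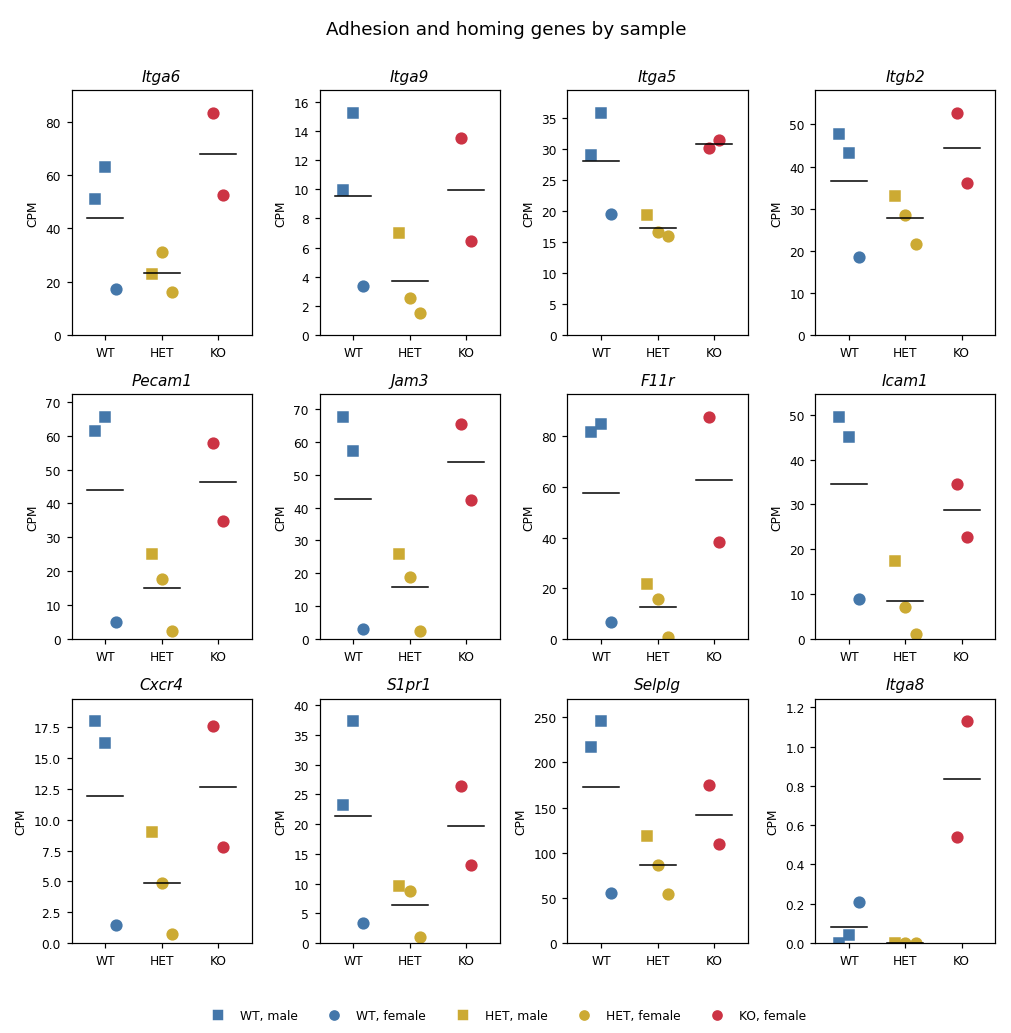
CPM of 12 genes in each sample, by genotype (squares, samples labelled male; circles, female; black line, group mean; linear axes from 0, each with its own scale). In Pecam1, Jam3 and F11r the WT3 circle (4.95, 2.92 and 6.56 CPM) lies far below the other WT samples, and only in Itga8 do both KO circles (0.538 and 1.13 CPM) lie above all 6 other points.

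Icam1, the ligand of LFA-1 and Mac-1 and a textbook NF-κB target, was at 49.6, 45.0 and 8.85 CPM in WT, at 17.3, 7.21 and 1.07 in HET and at 34.6 and 22.7 in KO. Both KO samples were thus between the HET samples and WT1 and WT2. Fitted with sex, its log2 fold change was 2.32 ± 0.74 (SE), adjusted p = 0.152. It was 1.96 without WT3 and HET3 and -0.05 when the sex term was left out as well. Gm47079 overlaps Icam1 on the other strand. Because the deleted gene restrains NF-κB, promoters of the members were searched for the κB motif GGNNNTTCC on either strand. RefSeq promoters (250 bases before to 50 after the start, GRCm38.p6) were given for 22 of the 37 genes, and 5 of them held the motif (Icam1, F11r, Itga2, Itga5 and Itgb1), where 20.7% of all 27025 genes in the table did. Icam1 held 2 matches, so the 250 bases before its start are shown whole, at chr9:21015690-21015939 on the plus strand, with the matches in capitals. The first match fits the motif on both strands and the second on the strand opposite the gene only. They begin 153 and 84 bases before the start.
Icam1: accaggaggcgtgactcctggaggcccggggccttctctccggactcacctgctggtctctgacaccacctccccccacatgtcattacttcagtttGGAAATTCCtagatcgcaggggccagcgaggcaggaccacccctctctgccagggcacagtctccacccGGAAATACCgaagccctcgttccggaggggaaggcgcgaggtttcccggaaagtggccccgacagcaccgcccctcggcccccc

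For the other 4 promoters the match is shown with 10 bases on either side, since these genes differed in the data: F11r and Itga5 were among the 12 members with the lowest p in KO against WT/HET, whereas Itgb1 was even. The windows lie at chr1:171437580-171437608 on the plus strand (F11r), chr15:103366910-103366938 on the minus strand (Itga5), chr13:114932079-114932107 on the minus strand (Itga2) and chr8:128685480-128685508 on the plus strand (Itgb1). Each reads 5′ to 3′ on the strand of the gene, with the matched letters in capitals.
F11r: tggatcgcgaGGCTGTTCCcattggagtt
Itga5: gccccccagaGGTGATTCCtttcctcatt
Itga2: ggcaggcaggGGCGGTTCCtagctcagaa
Itgb1: gactgcggctGGGCTTTCCagccgggcgg

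A match describes the letters and not a site of binding. The promoters of Cxcr4, Cxcl12, Itga3 and Itga9, which were also among the 12 with the lowest p, held no match within the window, and that given for Itga9 lies inside the gene as annotated.

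Of the other molecules of this type, Jam2 was likewise lowest in WT3 and HET3 and the rest were not. Icam2, a further LFA-1 ligand, stayed between 77.6 and 108 CPM in all samples. Vcam1, the ligand of VLA-4 and a molecule of macrophages and stroma, was at 3.70, 14.8 and 30.9 CPM in WT, at 8.51, 0.757 and 8.72 in HET and at 1.13 and 2.51 in KO. Its log2 fold change was -2.88 ± 1.31 (SE), adjusted p = 0.209, and turned to 1.23 once WT3 and HET3 were left out. The macrophage genes were also highest in WT3 (263 CPM, and 48.0 CPM of Adgre1 alone), and their part in the level of Vcam1 was not tested. Jam2 was at 9.17, 5.64 and 0.573 CPM in WT, at 2.29, 0.807 and 0.0593 in HET and at 3.96 and 1.57 in KO, with KO2 under HET1 (log2 fold change 2.50 ± 0.93, adjusted p = 0.163). Its log2 fold change was 1.74 without WT3 and HET3 and -0.16 without the sex term. Mcam (CD146) had 38 reads in 8 samples, 14 of them in KO1 and none in KO2.

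Of the 4 surface glycoproteins, Selplg, the selectin ligand PSGL-1 on which blood cells roll, was higher at an unadjusted p under 0.05. It was at 217, 246 and 55.4 CPM in WT, at 118, 86.2 and 53.9 in HET and at 175 and 109 in KO. KO2 was below HET1. In the fit its log2 fold change was 1.12 ± 0.35 (SE), adjusted p = 0.152, 0.69 without WT3 and HET3, and -0.23 when the sex term was left out as well. Podxl, the sialomucin podocalyxin, went the other way and was the second member that was lower in KO at an unadjusted p under 0.05, which is why it is described. It was at 13.9, 9.36 and 44.6 CPM in WT, at 28.6, 41.8 and 52.2 in HET and at 12.2 and 25.7 in KO. The 3 female reference samples were the highest, and KO1 and KO2 lay within the range of the male samples. The fitted log2 fold change was -1.28 ± 0.49 (SE), adjusted p = 0.168, and -1.17 without WT3 and HET3. Cd44, the hyaluronan receptor, was at 92.5 and 113 CPM in KO and at 79.6 to 132 CPM in WT and HET. Cd47 was at 692 and 594 CPM in KO and at 560 to 698 CPM in WT and HET, so that its highest sample was 1.25 times the lowest. With Itga4, Itgb1, Itgal and Icam2, these were the 6 members whose highest sample was less than 2 times the lowest.

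**Figure D4:**
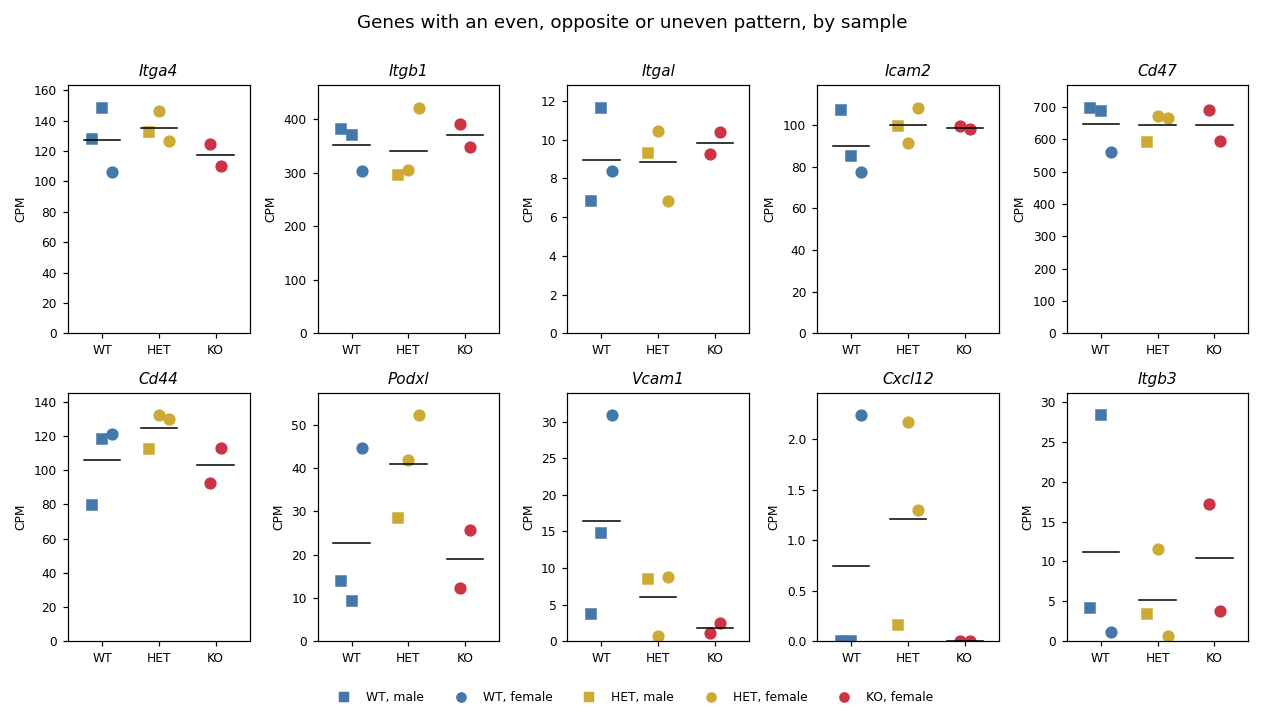
CPM of 10 genes in each sample, by genotype (squares, samples labelled male; circles, female; black line, group mean; linear axes from 0, each with its own scale). Itga4, Itgb1, Itgal, Icam2, Cd47 and Cd44 overlap between genotypes, while Podxl is highest in the female WT and HET samples (41.8 to 52.2 CPM) and Cxcl12 is at 0 in both KO samples as it is in WT1 and WT2.

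In the chemokine and sphingolipid axis, Cxcr4, the receptor that guides stem cells to their niche, was at 18.02, 16.3 and 1.46 CPM in WT, at 9.04, 4.84 and 0.771 in HET and at 17.6 and 7.77 in KO. KO1 lay between WT2 and WT1, and KO2 lay below HET1. KO over WT/HET gave a log2 fold change of 2.42 ± 0.73 (SE), adjusted p = 0.152, and 1.36 without WT3 and HET3. S1pr1, the receptor for sphingosine 1-phosphate that draws cells toward blood, was at 23.3, 37.4 and 3.39 CPM in WT, at 9.57, 8.73 and 1.01 in HET and at 26.4 and 13.1 in KO (log2 fold change 2.17 ± 0.82, adjusted p = 0.165, and 1.15 without WT3 and HET3). Both KO samples were above the 3 HET samples, but KO1 alone exceeded WT1.

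Cxcl12, the ligand of CXCR4 and a product of stroma and endothelium, had no read in KO1 or KO2. It had none in WT1 and WT2 either, and 43, 3, 43 and 22 reads in WT3, HET1, HET2 and HET3. With a floor of 3 reads over both KO samples together (0.0793 CPM before TMM scaling, as are the bounds given here), its KO level was at least 11.4-fold lower than the pooled WT and HET level, and at least 21.7-fold lower than that of the 3 female references. Its unadjusted p was 0.00344 and its adjusted p 0.148, while the fitted fold change depends on the prior count and is not given. The stromal gene Dcn was found in the same 4 samples, at 0.729, 0.0532, 0.908 and 0.178 CPM, and was at 0 in the others. The stromal genes did not move together. Of the 5, Col1a1, Col1a2 and Pdgfrb had a log2 fold change above 0 in KO, and Dcn and Lum had one below 0. Their summed level was highest in WT1, which had no read of Cxcl12, and lowest in WT3, which had 43. Whether Cxcl12 and Dcn share a source was not tested. Ackr3, a scavenger receptor for CXCL12, had 19 of its 27 reads in HET3.

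**Figure D5:**
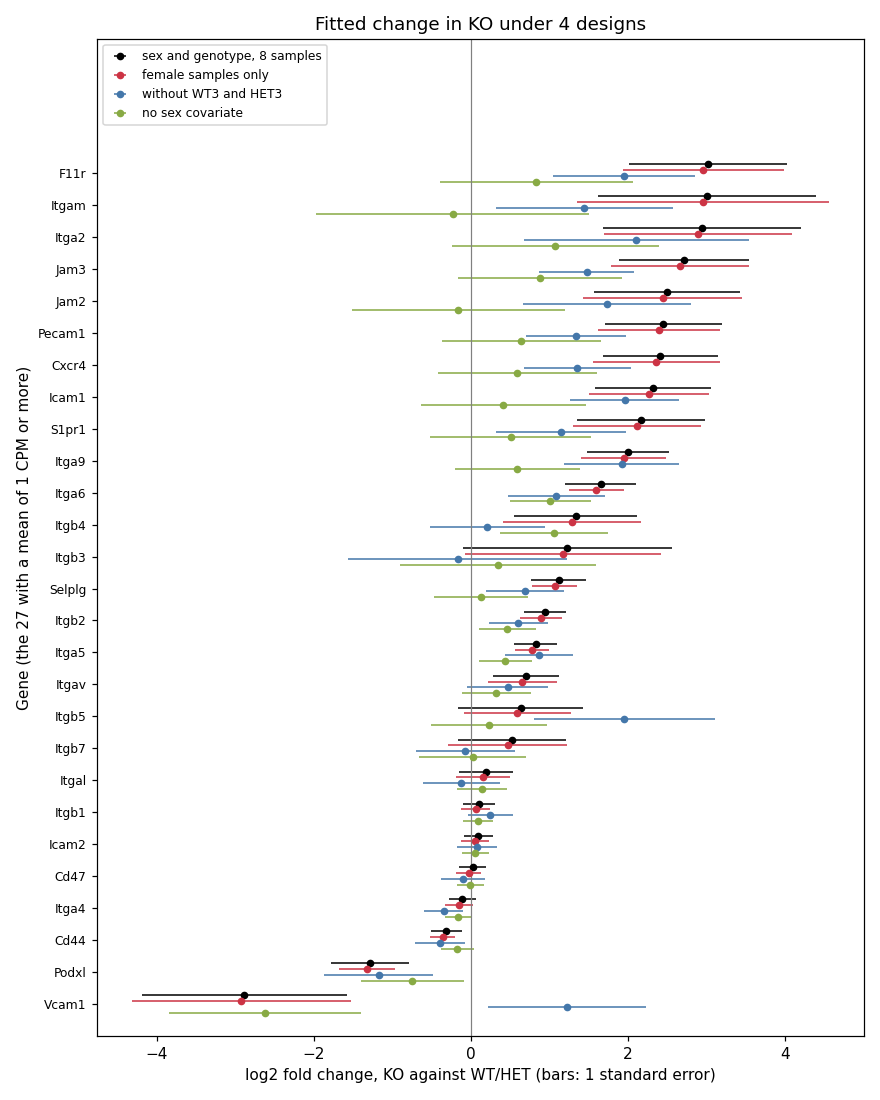
Fitted log2 fold change of KO against WT/HET (x axis; bars, 1 standard error) for the 27 members with a mean of 1 CPM or more (y axis), under 4 designs. With sex in the model F11r, Jam3, Pecam1 and Cxcr4 lie between 2.42 and 3.02 (black), and they move toward 0 when WT3 and HET3 are left out (blue, 1.34 to 1.95) or the sex term is dropped (green), whereas Vcam1 changes sign without WT3 and HET3.

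The calls for KO were also sensitive to which reference samples were used. Against WT alone, edgeR called 3 members, Pecam1, F11r and Jam3, all higher, where 3.22% of all genes were called. Without HET2 it called 4 members, Itgam, Pecam1, Jam3 and Cxcr4, all higher, where 3.54% of all genes were called. Without WT3 and HET3 it called none. With sex in the model, the female references set the KO term, as both KO samples are female. They were WT3 alone in the first of these fits, WT3 and HET3 in the second and HET2 alone in the third. No member was called with HET alone as the reference or with WT1, WT2, WT3, HET1 or HET3 left out singly. At most 0.0388% of all genes were called there. WT3 and HET3 are the samples low in LT-HSC markers, and the part of these markers in the calls was not tested.

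A further fit set HET against WT, with a term for sex and without the KO samples. No member was called by edgeR, where 0% of all genes were, and none had an unadjusted p under 0.05, where 3.63% of all genes did. DESeq2 called none as well, where 0.311% of all genes were called. It had 2 members at an unadjusted p under 0.05, where 4.69% of all genes were. The 3 members with the lowest p were Itga5, Podxl and Ackr3. Itga5 had a log2 fold change of HET over WT of -0.51 ± 0.24 (SE), and Podxl one of 0.68 ± 0.33 (SE), both with an adjusted p of 0.931. In both the WT3 sample lay on the side of the HET samples. Ackr3 had no read in WT and 5, 0 and 19 reads in HET, which is at least 8.19-fold higher over the group, with a floor of 3 reads over the WT samples and an adjusted p of 0.931. The median log2 fold change over the members was -0.11, against 0.00 over all genes.

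This comparison turned on the same libraries. Without WT3 and HET3, edgeR called 9 members, where 9.60% of all genes were called, although only WT1, WT2, HET1 and HET2 were then left, with 1 residual degree of freedom and HET2 as the sole female sample. Lower in HET were F11r (log2 fold change -1.94 ± 0.22, adjusted p = 0.00024), Pecam1 (-1.33 ± 0.22, adjusted p = 0.00239), Icam1 (-1.45 ± 0.25, adjusted p = 0.00282), Jam3, Itga6, S1pr1, Itga2 and Itga3. Higher was Podxl, by 1.30 ± 0.28 (adjusted p = 0.00886). Leaving out HET2 alone gave 1 called member, F11r, where 0.657% of all genes were called. The LT-HSC marker sum was 1283 and 1367 CPM in WT1 and WT2 against 540 and 444 CPM in HET1 and HET2, and its part in these values was not tested.

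The male samples were set against the female ones with genotype in the model, a contrast that also sets samples labelled total RNA against those labelled polyA RNA. No member was called, where 0.0194% of all genes were. At an unadjusted p under 0.05, 14 members were higher in male samples, where 18.9% of all genes were, and 2 were lower, where 13.6% of all genes were. DESeq2 called 13 members, with or without shrinkage, where 2988 of the 20610 genes were called without it and 2406 with it. Without WT3 and HET3, 6 members were higher and 2 lower at an unadjusted p under 0.05, where 6.51% of all genes passed in either direction. This contrast and that of KO share the WT and HET samples. The log2 fold change of male over female was 2.59 ± 0.71 for Pecam1, 2.62 ± 0.78 for Jam3, 3.02 ± 0.95 for F11r, 2.61 ± 0.69 for Cxcr4 and -1.42 ± 0.43 for Podxl, next to 2.45, 2.72, 3.02, 2.42 and -1.28 for KO over WT/HET. Itga8 was the higher member in KO that did not share the sign, with -1.85 ± 1.65 for male over female.

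Genes that act with the members were described from 5 further lists. The counts at an unadjusted p under 0.05 in these lists stand beside 15.7% of all genes higher in KO and 9.48% lower. Of 29 genes that activate integrins or link them to the cytoskeleton, 11 were higher in KO at that p and none was lower. Parvg, an adaptor of integrin-linked kinase in blood cells, was at 73.3, 61.6 and 25.6 CPM in WT, at 54.1, 24.1 and 23.1 in HET and at 78.8 and 50.8 in KO (log2 fold change 1.42 ± 0.22, adjusted p = 0.148). Rassf5, the Rap effector that activates LFA-1 (1.72 ± 0.38), and Fermt2, the kindlin that opens beta chains (2.42 ± 0.63), had the same adjusted p. In all 3 genes named here both KO samples were above the 3 female reference samples, as 27.1% of all genes were. They were picked by the KO term that these samples set, so this is no separate result.

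Of 17 selectins and sialomucins, 6 were higher and none was lower, among them Cd34 (2.54 ± 0.87, adjusted p = 0.156), Cd93 (2.57 ± 1.02, adjusted p = 0.176) and Tspan32 (0.58 ± 0.24, adjusted p = 0.182). Cd34, which carries selectin ligands on progenitors, was at 7.53 CPM in HET3 and 47.1 in WT3, at 438 and 274 in KO and at 129 to 459 in the rest. Of 25 cadherin-related and other adhesion genes, 7 were higher and none was lower, with Ceacam1 (1.69 ± 0.48, adjusted p = 0.148), Ctnnb1 (0.65 ± 0.20, adjusted p = 0.152) and Ctnna1 (0.42 ± 0.15, adjusted p = 0.157) at the lowest p. Of 16 matrix ligands of integrins, 5 were higher and none was lower: the laminin chains Lamb2 (3.42 ± 0.88, adjusted p = 0.148) and Lama5 (3.18 ± 0.99, adjusted p = 0.152), the type IV collagen chains Col4a2 (1.40 ± 0.46, adjusted p = 0.154) and Col4a1, and the proteoglycan gene Hspg2. Lama5 was above all WT and HET samples in both KO samples, with 2.64 and 3.10 CPM against 0.0593 to 2.51 CPM. Of the 3 other integrin genes, Itgb6 was higher on few reads, while the megakaryocyte chain Itga2b was at 64.2 and 17.5 CPM in KO and at 8.39 to 53.0 CPM in WT and HET. No gene of these lists was called, where 0% of all genes were. Their counts at an unadjusted p under 0.05 stood beside 15.7% of all genes higher and 9.48% lower. Their medians of 0.49 to 1.34 on the log2 scale stood beside 1.04 for the members and 0.13 for all genes.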

How the data were processed

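Per the methods, total RNA of 500 sorted LT-HSCs per sample entered an mRNA protocol for ultralow input, and cDNA was sequenced as single-end reads. The methods name no difference between samples, whereas the labels give total RNA for the male and polyA RNA for the female ones. Which account holds was not tested. Per the labels and methods the authors trimmed the reads with Trim Galore 0.6.6, aligned them to GRCm38 with STAR 2.7.8 and counted uniquely mapped reads per Ensembl gene, and the raw counts they deposited were used here. Genes with near-identical copies can be undercounted in unique reads. Counts of genes with 10 or more reads over the 8 samples were normalized by TMM and fitted on sex and genotype in edgeR 4.0.16 (R 4.3.3), whose quasi-likelihood test in its legacy form gave p-values that were adjusted over all genes after Benjamini and Hochberg. DESeq2 1.42.0 with or without apeglm 1.24.0 was an alternative. Exact two-sided permutation tests used log2 CPM with a prior count of 2. The tests were tried on simulated data first. A further KO sample was discarded by the authors for its sequencing quality. The deposited normalized table was not used here.

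The members and lists were chosen with earlier results of these data known. Full statistics are given for the 12 members with the lowest p in KO against WT/HET, members whose KO samples lie beyond all others, the 3 with the lowest p in HET against WT, and up to 3 genes of each further list with a mean of 1 CPM or more. Podxl, Vcam1, Jam2, S1pr1, Itga2, Itga4 and Itgb1 and single marker genes were added after their values were seen. A further list of genes is not reported here. Positions are 1-based on GRCm38. Shared litters were used where possible, and the litter of each sample is not given, so p-values measure the spread between these samples. Intervals and floors cover counting error only. Alternatives were other tools, scalings, filters, covariates and references, each sample left out in turn, and, chosen after seeing the data, WT3 and HET3 left out together.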

Additional observations from a re-analysis of the deposited data

Results flagged for a closer look

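In the 6 WT and HET samples, the level of 6 of the 36 members had 1 sample set apart from the others. Its gap to the nearest other took up more of the whole range than Dixon's 95% limit for 6 samples allows. The sample was HET2 for Itga1 (1.11 CPM), WT3 for Itga8 (0.208 CPM), WT2 for Itgam (7.65 CPM) and Itgb8 (0.794 CPM), HET3 for Ackr3 (1.13 CPM), and WT1, as the lowest, for Cd44 (79.6 CPM). Of these genes Itga1, Itga8, Itgb8 and Ackr3 had a mean under 1 CPM, so that the gap rests on few reads. For samples of 1 normal population the limit flags about 1 in 20 groups, whereas these levels pool WT and HET and both sexes. The share of all genes flagged was not recorded, so the 6 members cannot be read as more than usual. The effect of HET over WT was also compared between male and female samples by an interaction term. No member passed an adjusted p under 0.05 in edgeR (lowest 0.452), and 0 of 20585 genes passed. At an unadjusted p under 0.05 there were 5 members, and the share of all genes was not recorded, so this count has nothing to be read against.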

How the results depend on the processing

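For KO against WT/HET, the number of members called moved from 0 to 13 with DESeq2 without shrinkage, 11 with apeglm, 10 without a filter on low counts and 3 with WT alone as the reference, and ranged from 0 to 4 as single samples were left out (4 without HET2). The number at an unadjusted p under 0.05 moved from 17 to 1 without the sex covariate, 10 with HET alone as the reference, 6 without WT3 and HET3 and 1 when the sex covariate was dropped as well, and ranged from 5 (without KO1) to 20 (without HET2). Under these changes, in the same order, the share of all genes moved from 25.2% to 2%, 14.1%, 5.09% and 1.6%, and it was 26.7% without HET2. With the replicate block 3 members and 2.86% of all genes were under that p, and no member was called. Deviations of same-numbered samples from their group means had correlations from -0.346 to 0.59. With 2 KO samples the deviations of KO1 and KO2 mirror each other, so these values cannot show whether the numbers pair the samples. The numbers were not taken to pair them. Shared litters were used where possible, but the litter of each sample is not given. For HET against WT, the called members moved from 0 to 9 without WT3 and HET3 and 13 without the sex covariate as well (2246 of 20499 genes), and ranged from 0 to 1 as samples were left out. For male against female they moved from 0 to 13 with DESeq2 without shrinkage (2988 of 20610 genes), 13 with apeglm (2406 genes) and 14 without a filter (2255 of 31478 genes), and ranged from 0 to 13 as samples were left out (13 without HET1, beside 3070 of 20607 genes, and 7 without HET2, beside 1325 of 20603 genes). Without WT3 and HET3 and without the sex covariate, the log2 fold change in KO turned to -0.23 for Itga3, -0.23 for Selplg and -0.054 for Icam1. The fold changes of the members with full statistics, 16 in all, gave 320 values under the alternatives. Of these, the 3 above were reversed, 37 passed the threshold that the main value missed, and 280 kept their direction and their side of it. Of the 23 other members in KO, 12 changed sign under at least 1 of 7 alternatives, among them Vcam1 (1.23 without WT3 and HET3, 1.76 with the replicate block), Jam2 (-0.16 without the sex covariate), Itgam (-0.23) and Itga7 (-1.51). Library size alone as scaling moved the median of all genes from 0.13 to 0.41 and that of the members from 1.04 to 1.33. Why the calls moved was not tested. With 2 KO samples, both female, no difference between the sexes in KO could be measured.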
